A study of Rattus norvegicus with 30 samples.

Results

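The liver response of male Crl:CD(SD) rats to dietary phenobarbital (PB) is described here from 8 of the 30 arrays in the series, chosen by their titles. They came from 4 rats given a diet with 1000 ppm PB for 7 days and 4 rats given the same diet at 0 ppm (control). The 8 arrays are biological replicates per the labels, in which no age is stated. Crl:CD(SD) is an outbred stock, called SD rats below. The series also holds livers of CAR KO rats on the same diets (4 control and 4 PB) and of chimeric mice carrying rat hepatocytes (7 and 7), and these enter where their PB response was set against that of SD rats. The CAR KO rats lack the constitutive androstane receptor (CAR, gene Nr1i3), and the labels do not say how the knockout was made or from which stock. In the chimeric mice the parts of the liver that are not rat hepatocytes are the host's.

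Phenobarbital is a barbiturate that activates CAR in liver cells, and high doses also reach the pregnane X receptor (PXR, Nr1i2). Activated CAR moves to the nucleus and pairs with the retinoid X receptor on target genes, the best known of which encode cytochrome P450 enzymes of the 2B family. In rodents the treated liver grows, its smooth endoplasmic reticulum expands, and hepatocytes enter the cell cycle for some days. Each array reported 1-colour fluorescence for rat probes, and a level below is log2 of a gene's signal minus the 75th percentile of its array, so 0 is the level of a fairly bright probe. A gene is called measured on an array where the scanner software marked its signal as well above background.

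Across 17285 genes and unnamed transcripts tested, 731 (4.23%) passed limma's test at an adjusted p of 0.05. Of these 426 (2.46%) were higher on PB and 305 (1.76%) were lower. Counts over the gene lists below are to be read beside these shares. At least 2-fold changes made up 96 of the higher (0.555% of those tested) and 41 of the lower (0.237%). Most of the response was small, with 216 of the higher and 176 of the lower genes changed by less than 1.5-fold. The far end was uneven between directions, with 37 genes higher and 7 lower by over 4-fold. The median difference was 0.58 among the genes that rose, -0.52 among those that fell and -0.02 over all genes tested (log2). In 403 of the 426 higher genes the 4 PB rats lay above all 4 controls, and in 274 of the 305 lower genes they lay below. These genes were chosen on the same values, so the counts only describe them, and over all genes tested the shares were 5.86% and 5.72%. Genes with a symbol in RefSeq made up 287 of the higher and 198 of the lower, and the others have no name here.

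The genes that passed were chosen on all 4 PB rats, and their medians are given by rat as a description. Set against the control mean, the median over the genes that rose was 0.52 in PB rats 1 and 2, 0.70 in PB rat 3 and 0.48 in PB rat 4 (log2). Over the genes that fell it was -0.52, -0.50, -0.55 and -0.45. Leaving out 1 rat at a time gave between 395 and 687 genes past the test, fewest without PB rat 3, then 457 without control rat 1 and 481 without control rat 4. The number of genes that rose was 227 without PB rat 3. The number that fell was between 165 and 202 without control rat 1 or 4 or PB rat 1, 2 or 3. Of 4 equal parts of the genes ordered by level, the brightest held 176 of the genes that rose and 98 of those that fell, and the dimmest held 50 and 90.

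**Figure D1:**
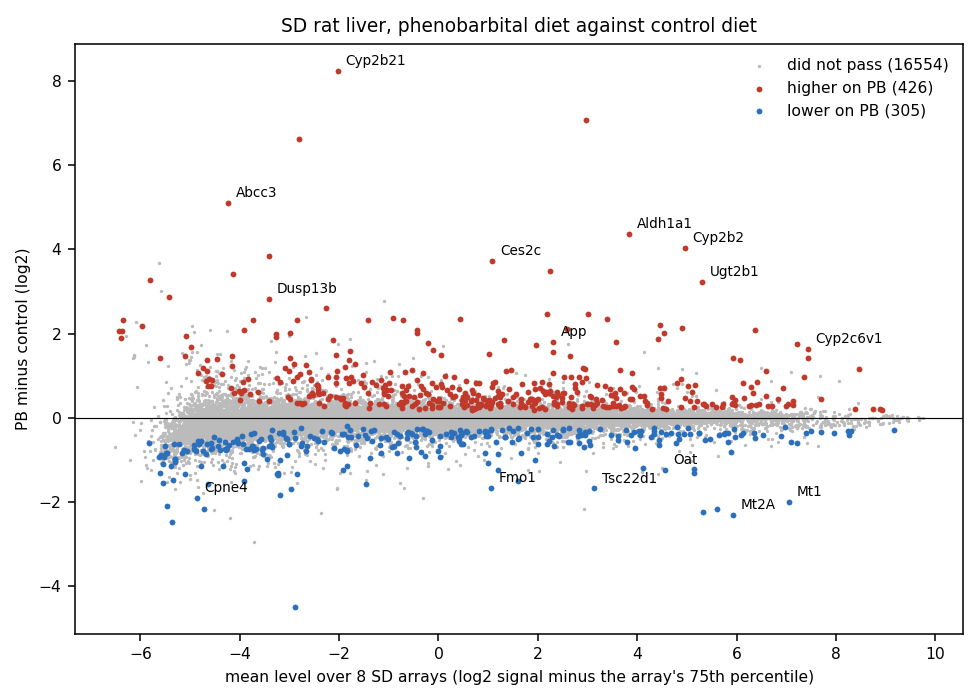
Difference between PB and control SD rats (log2, vertical axis) against the mean level over the 8 arrays (log2 signal minus the array's 75th percentile, horizontal axis), 1 point per gene or transcript. Red points (426) were higher on PB and blue points (305) lower by limma at an adjusted p of 0.05, and the upper tail reaches 8.24 while the lower tail ends at -4.49.

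Measures of the arrays themselves also differed between diets. Of the probes, the share measured was 64.1% ± 0.605 in controls and 59.8% ± 0.861 in PB rats (SD, n = 4 each). The groups did not overlap, and the exact two-sided permutation test gave p = 0.0286, the smallest possible with 4 against 4, or 0.105 after adjustment over 11 array measures. The signal at the 75th percentile was 443 ± 20.4 and 437 ± 6.22 (exact permutation p = 0.629). The dimmest part of the genes had a median difference of -0.12, and 229 genes were measured on all 4 control and no PB arrays against 5 the other way. The lowest level marked as well above background was itself higher on PB. It was -6.28, -6.28, -6.60 and -6.15 on control arrays 1 to 4 and -5.76, -5.67, -5.86 and -5.90 on PB arrays 1 to 4. In CAR KO rats the share measured was 65.9% ± 1.11 in controls and 62.7% ± 1.81 on PB. What part of the 229 follows from the higher floor was not tested. Each diet lay in its own slide row in the rat arrays, so diet and row cannot be told apart within them. With slide row as a term in a fit of all 30 arrays, where the chimeric arrays separate row from diet, 115 genes passed, 109 of them among the 731 and in the same direction.

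Among the genes described below, 28 passed in all 23 alternative fits in which they were tested. These were the P450 and heme genes Cyp2b21, Cyp2b2, Cyp3a23-3a1, Cyp2c6v1 and Alas1, the pump Abcc3, and the enzymes Aldh1a1, Akr7a3, Ephx1, Ces2c, Ces2j, Ugt2b1, Ugt2b37, Gsta4, Gsr, Srxn1, Htatip2 and Tkt. The others were Msmo1 and Tmem97 of sterol metabolism, Rfc2 of DNA replication, and Dusp13b, App, Adgrg2, Cxcl9, Slc35e3, Phf21b and Ddc. The other 92 described genes that passed lost the call in at least 1 alternative, and all genes described as fallen are among those 92. The call was lost most often with the slide row term (81 genes), while all 30 arrays without that term ended it for 57.

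Among the P450 enzymes, which oxidise drugs and steroids, a few members changed, and Cyp2b21 had the largest fitted difference of all genes tested. Of 31 P450 and partner genes tested, 6 rose and 1 fell, and their median was -0.05 (log2) beside -0.02 over all genes tested. Cyp2b2 stood at 2.84, 3.21, 2.84 and 2.88 in the 4 controls and at 6.89, 7.11, 7.35 and 6.56 in the 4 PB rats. The lowest PB rat lay over 3 log2 units above the highest control, and the rise was 4.03 ± 0.14 (log2 ± SE, adjusted p = 7.78e-10). Another probe of Cyp2b2 rose by 6.96 ± 0.28, so the size differs between probes. Cyp2b21 was measured on 1 of 4 control arrays (levels -6.84, -4.37, -7.20 and -6.17) and on all 4 PB arrays (2.01, 2.20, 2.64 and 1.54). Its difference of 8.24 ± 0.53 therefore rests in part on control signals that were not well above background. Cyp3a23-3a1 rose 4.28-fold and Cyp2c6v1 3.13-fold.

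Of the genes that supply electrons, heme and iron to P450s, a few rose. Por encodes the reductase that passes electrons to P450s. It stood at 1.51, 1.28, 1.53 and 1.77 in controls and 2.59, 3.22, 3.61 and 2.94 on PB, without overlap (1.57 ± 0.18, adjusted p = 0.000161). With the slide row term the difference of Por was 0.71 (log2) and did not pass (adjusted p = 0.71). Alas1, the first and rate-limiting enzyme of heme synthesis, rose 2.66-fold, while of 15 heme genes the other riser was Blvrb, a biliverdin reductase (1.48-fold). Tfrc, the transferrin receptor that brings iron into cells, stood between 1.67 and 1.88 in controls and between 2.68 and 2.98 on PB and rose 2.10-fold. Of 24 iron genes 2 rose and 0 fell, the other being Ftl1. Ftl1 no longer passed when any 1 of the 8 rats was left out. Cyp26a1, which breaks down retinoic acid, rose 5.02-fold, and Aldh1a1, which makes retinoic acid from retinaldehyde, rose 20.7-fold. Cyp1a1, the classical target of the aryl hydrocarbon receptor (AhR), passed at an adjusted p of 0.0438 and was measured on 1 control and 3 PB arrays. Without control rat 1 its adjusted p was 0.102, and Cyp1a2, another AhR target, had -0.61 ± 0.19 and did not pass (adjusted p = 0.0832).

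Several genes of hydrolysis and conjugation rose. Of 17 carboxylesterases, enzymes that split ester drugs and lipids, 4 rose and 1 fell (median 0.10, log2). Ces2c stood at -1.19, -0.50, -0.60 and -0.83 in controls and at 2.81, 3.61, 3.06 and 2.30 on PB, a 13.2-fold rise. Ces2j rose 5.51-fold and Ces2h 1.74-fold. Ephx1, the microsomal epoxide hydrolase, rose 4.02-fold, from 3.09 to 3.93 over the controls to 5.32 to 5.70 over the PB rats. Akr7a3, an aldehyde reductase known in rats for detoxifying aflatoxin dialdehyde, rose 4.64-fold.

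Of 12 genes of glucuronidation, which joins glucuronic acid to drugs, bilirubin and thyroid hormone, 5 rose and 0 fell. The list's median was 0.46 in SD rats (log2). Ugt2b1 stood at 3.68, 3.32, 4.54 and 3.23 in controls and 6.84, 7.09, 7.13 and 6.60 on PB and rose 9.35-fold. Ugt2b37, already bright, had a narrow spread, between 5.58 and 5.74 in controls and between 6.07 and 6.2 on PB, and rose 1.41-fold. Ugt1a6 rose 1.79-fold and Ugdh, which makes the sugar donor, by 0.39 (adjusted p = 0.048). In a fit limited to the 8 SD arrays 2 of the 12 passed.

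Of 25 genes of glutathione conjugation and synthesis 11 rose and 0 fell, with a median of 0.46 (log2). The changes were mostly below 2-fold: Gsta4 rose 1.82-fold and Gstm1 2.17-fold. Gstm1 lay between 5.82 and 6.25 in controls and between 7.08 and 7.28 on PB, so no control reached a PB rat. Gstm3 rose most (2.37 ± 0.49, log2), from controls that ranged from -3.81 to -0.82. Gsta3 rose 1.51-fold by the probe used and by 3.88 ± 0.28 (log2) by a dimmer probe. Close members of these families can share probe sequence, and how far probes cross-react was not tested. Gclc, the catalytic subunit of the first enzyme of glutathione synthesis, rose 1.40-fold, and without PB rat 2 its adjusted p was 0.0765. With all 30 arrays and no row term 6 of the 25 passed, and with the slide row term added 4.

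Of 14 sulfotransferases, methyltransferases and acetyltransferases 1 rose and 2 fell (median -0.17, log2). Inmt, which methylates indoles, rose 5.06-fold and Sult2a1, which sulfates hydroxysteroids and bile acids, fell 2.46-fold. Sult2a1 stood at 5.82, 5.71, 6.28 and 5.34 in controls and at 4.45, 4.09, 4.22 and 5.19 on PB. PB rat 4 lay nearest the controls. The other that fell was Gnmt, glycine N-methyltransferase (-0.47 ± 0.11, adjusted p = 0.0346, or 0.0936 without PB rat 3). Inmt passed at an adjusted p of 0.0278, or 0.0827 without PB rat 3. Fmo1, a flavin monooxygenase that oxidises nitrogen and sulfur in drugs, fell 3.18-fold and was the 1 of 7 genes of flavin and amine oxidases that passed.

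Export and uptake genes did not move in 1 direction. Abcc3, a basolateral pump for glucuronides and bile acids, was measured on no control array and on all 4 PB arrays, at -1.74, -1.58, -1.67 and -1.73. Its rise was at least 24.8-fold (adjusted p = 1.07e-06). Abcc2, the canalicular pump for conjugates, rose 1.68-fold although its groups overlapped, and without PB rat 3 its adjusted p was 0.0919. Abcb4, which moves phosphatidylcholine into bile, fell 1.59-fold and Abcc6, a transporter of the sinusoidal membrane, 1.24-fold, so that 3 of 22 ABC pumps rose and 3 fell. Of 22 uptake carriers 1 rose and 4 fell. Slc22a7, an organic anion transporter, fell 1.33-fold, and Slco1a1, which takes up bile salts and steroid conjugates, fell 1.23-fold with controls at 2.89 to 3.05 and PB rats at 2.65 to 2.71. Slco1a4, known in rats as a PB-inducible uptake carrier, had 0.72 ± 0.23 and did not pass (adjusted p = 0.0918).

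**Figure D2:**
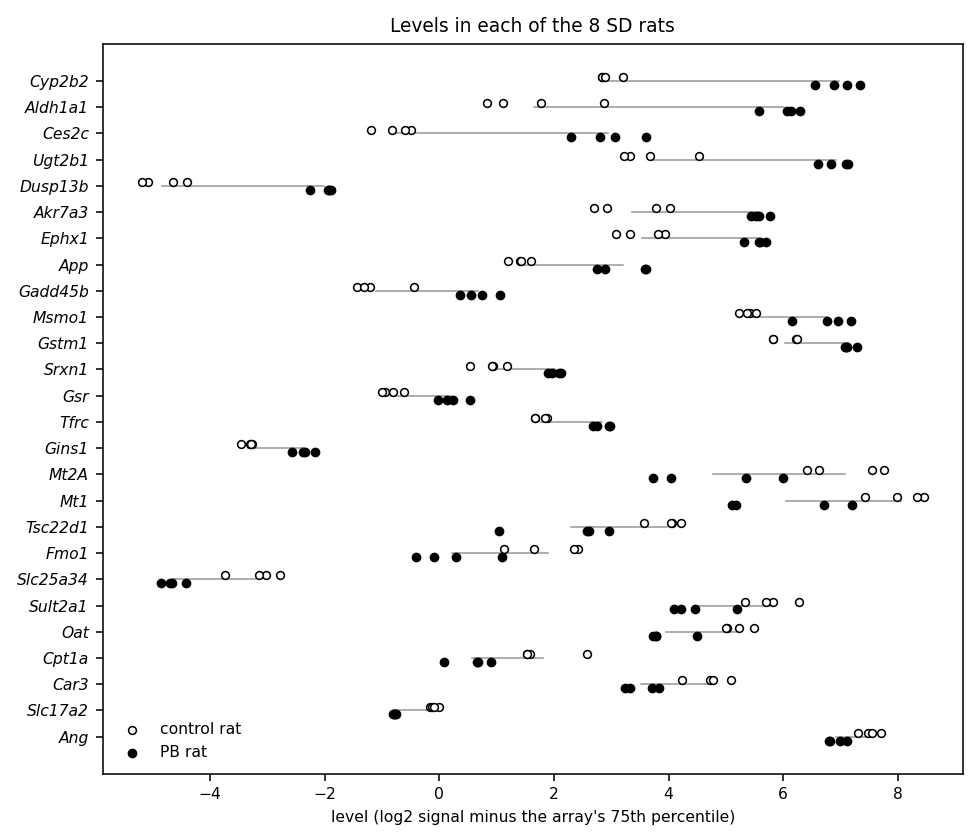
Levels of 26 genes in each of the 8 SD rats (log2 signal minus the array's 75th percentile, horizontal axis), open points for control and filled points for PB, with a line joining the group means. Cyp2b2, Aldh1a1, Ces2c and Ugt2b1 at the top separate by more than 3 on average, while narrow shifts such as those of Slc17a2 and Ang near the bottom are 0.68 and 0.59 with no overlap.

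The transcription factor NRF2 is released from its inhibitor KEAP1 by electrophiles and raises genes of glutathione, thioredoxin and NADPH supply. Of 37 genes known to respond to NRF2, 20 rose and 0 fell, and 33 of the 37 differences lay above 0, as did 45.6% over all genes tested (median 0.47, log2). Several of the 20 are also known CAR targets, such as Abcc3 and Ephx1. The median over the list in each rat, set against the control mean, was 0.37, 0.59, 0.69 and 0.30 in PB rats 1 to 4 and between -0.02 and 0.06 in the controls.

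Srxn1, the sulfiredoxin that repairs oxidised peroxiredoxins, stood at 0.53, 1.17, 0.93 and 0.93 in controls and 2.12, 1.97, 2.09 and 1.90 on PB. The groups were well apart, and Srxn1 rose 2.19-fold (adjusted p = 0.000216). Gsr, which regenerates reduced glutathione, rose 2.09-fold. Htatip2, an oxidoreductase also called TIP30, stood at 0.42, 0.36, 0.48 and 0.30 in controls and 1.18, 1.26, 1.30 and 1.15 on PB, a 1.78-fold rise with little spread in either group. The best known members of the list gave no call. Nqo1, a quinone reductase, ranged from -1.55 to 1.31 in controls and from -0.51 to 2.04 on PB (0.54 ± 0.55, adjusted p = 0.626), and Hmox1, which breaks down heme, had 0.36 ± 0.27 (adjusted p = 0.48). Without PB rat 3, 15 of the list rose, and with only the 8 SD arrays 10. With all 30 arrays and no row term 13 rose, and with the slide row term added 11.

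The antioxidant response element to which NRF2 binds was looked for as TGACNNNGC on both strands of the 250 bases before each gene's start in RefSeq (assembly GRCr8). It was found in 6 of 29 promoters of the list, 20.7%, beside 12.6% of the promoters of all tested genes and 10.2% of all promoters in the table. Among the genes that rose it was found in Htatip2, Me1 and Ugdh. Members that held it and did not pass were Prdx1, Gpx2 and Gstp1. Over all tested genes with a promoter, 14.4% of those that rose and 15.7% of those that fell held it. The stretch of the Htatip2 promoter that ends at the base before the start is shown, with the match in capitals. It is shown because Htatip2 had the smallest adjusted p of the 3 that rose.
Htatip2, chr1:108610060-108610194, plus strand: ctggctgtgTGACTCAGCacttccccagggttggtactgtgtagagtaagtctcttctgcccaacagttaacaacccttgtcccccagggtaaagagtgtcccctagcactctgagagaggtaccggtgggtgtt

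Enzymes that make NADPH rose in part. Me1, malic enzyme, stood at 1.70, 0.26, 1.25 and 1.19 in controls and 2.33, 3.09, 3.62 and 2.25 on PB and rose 3.30-fold. Tkt, a transketolase of the pentose phosphate path, rose 1.63-fold. Of the 16 genes of this list 3 rose and 1 fell.

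Cholesterol synthesis is driven by SREBP2 when sterols in the endoplasmic reticulum run low. Of 33 genes of this path and other SREBP2 targets 13 rose and 0 fell, with a median of 0.54 (log2). All 13 risers encode enzymes or the scaffold Erg28. Msmo1, a sterol C4 oxidase, stood at 5.42, 5.53, 5.23 and 5.37 in controls and at 6.77, 6.15, 7.18 and 6.96 on PB (2.60-fold). Acat2, which condenses acetyl-CoA, had 2.46, 2.24, 2.50 and 2.30 in controls and 3.58, 2.89, 4.03 and 3.66 on PB (2.25-fold). In both genes PB rat 2 was the lowest and PB rat 3 the highest of the treated rats, and the list's median over the 4 PB rats had the same order, at 0.44, 0.24, 0.82 and 0.52.

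Mvd, mevalonate diphosphate decarboxylase, rose 2.16-fold and Erg28 1.46-fold. Without PB rat 3, 6 of the 33 rose, and with only the 8 SD arrays 2. With all 30 arrays and no row term 7 rose, and with the slide row term added 4. The sterol response element TCACNCCAC was found in 0 of 24 promoters of the list, beside 1.03% of tested genes.

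Fatty acid synthesis did not follow as a group: of 25 lipogenic genes 3 rose, Me1, Acss2 and Tmem97, with a median of 0.08. Tmem97, the sigma-2 receptor of sterol transport, rose 1.82-fold. Acss2, which makes acetyl-CoA from acetate, rose 1.80-fold (adjusted p = 0.0573 without PB rat 3). Fasn, fatty acid synthase, ranged from 2.09 to 4.90 in controls and from 3.68 to 4.25 on PB and had 0.29 ± 0.52 (adjusted p = 0.793). Lpl, lipoprotein lipase, which is low in adult liver, rose 2.29-fold from levels of -4.24 to -3.44 in controls to -3.19 to -1.93 on PB (adjusted p = 0.0836 without PB rat 3).

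Of 36 genes of DNA replication and S phase tested, 7 rose and 1 fell, and 28 did not pass. Differences lay above 0 in 31, beside 45.6% of all genes tested, and the median was 0.21 (log2). Gins1, a subunit of the replicative helicase, stood at -3.31, -3.28, -3.29 and -3.46 in controls and -2.35, -2.37, -2.57 and -2.17 on PB. It is a dim gene with a tight spread, and it rose 1.95-fold (adjusted p = 0.000134). Rfc2, of the clamp loader, rose 1.69-fold and Mcm3, of the helicase ring, 1.71-fold. E2f1, the factor that drives such genes, rose 1.37-fold, and Mcm2, also of the ring, 1.37-fold (adjusted p = 0.104 without PB rat 1). Pcna, the sliding clamp, had 0.19 ± 0.05 with PB rats at 0.25 to 0.38 above controls at 0.07 to 0.20 and just missed the threshold (adjusted p = 0.053). Mcm10, an initiation factor, went from -2.53 to -1.77 in controls to -4.04 to -3.40 on PB, and fell 3.23-fold (adjusted p = 0.0627 without PB rat 3). Other probes of Mcm10 and Mcm3 had -0.98 ± 0.33 and 0.49 ± 0.43 and did not pass (adjusted p = 0.109 and 0.562). With the probes of each gene averaged, Mcm3, E2f1 and Mcm2 no longer passed (adjusted p = 0.168, 0.659 and 0.143) and 4 of the list rose. With only the 8 SD arrays, and also with all 30 arrays and no row term, 3 rose and 1 fell. With the slide row term added 1 rose and 0 fell.

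The E2F site TTGGCGC, searched on both strands, was found in 7 of 30 promoters of the list (23.3%) beside 3.34% of tested genes. Among the genes that rose it was found in Gins1 and Mcm6. Members that held it and did not pass were E2f7, Cdc25a, Tipin, Mcm7 and Tyms. Over all tested genes with a promoter, 3.29% of those that rose and 3.61% of those that fell held it. The stretches of Gins1 and Mcm6 are shown up to the base before the start, with matches in capitals, and Mcm6 is named for its promoter alone. In Gins1 a match on each strand overlaps the other to make the capital run, the first of them 24 bases before the start.
Gins1, chr3:160184860-160184919, plus strand: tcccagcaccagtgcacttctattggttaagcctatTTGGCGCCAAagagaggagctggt
Mcm6, chr13:42404353-42404497, minus strand: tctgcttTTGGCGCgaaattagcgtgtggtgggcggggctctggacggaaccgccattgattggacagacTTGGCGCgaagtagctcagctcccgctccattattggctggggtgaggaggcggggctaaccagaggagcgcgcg

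Of 37 mitosis genes tested 3 rose and 0 fell. Differences lay above 0 in 32, beside 45.6% of all genes tested, with a median of 0.47 (log2). The median was 0.21 after normexp background correction, and over the 24 members measured on all 8 arrays it was 0.31, with 1 riser. With all 30 arrays and no row term 2 rose, and with the slide row term added 0 passed. Kif11, a spindle motor, rose 2.04-fold and Racgap1, of the cleavage furrow, 2.15-fold, each measured on 3 control and 4 PB arrays. Kif18b, a motor of microtubule ends, rose 1.89-fold (adjusted p = 0.068 without control rat 4). Cdk1, the kinase that starts mitosis, stood at -1.49, -2.78, -2.19 and -2.95 in controls and at -0.67, -0.98, -1.65 and -1.15 on PB (1.24 ± 0.45). The groups overlapped, since control rat 1 lay above PB rat 3, and Cdk1 did not pass (adjusted p = 0.142). The list's median had the same spread, at 0.36, -0.25, 0.09 and -0.21 in controls 1 to 4 and at 0.87, 0.54, 0.16 and 0.48 in PB rats 1 to 4. The CCAAT box was found in 22 of 31 mitosis promoters (71%) beside 36.3% of tested genes. Of the members that rose only Kif11 held it, and the other members that held it did not pass. Over all tested genes with a promoter, 41.6% of those that rose and 35.5% of those that fell held it.

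Gadd45b, a stress-inducible protein known as a CAR target and coactivator in mouse liver, stood at -0.44, -1.21, -1.45 and -1.32 in controls and 0.75, 1.06, 0.56 and 0.36 on PB. All PB rats lay above all controls, and Gadd45b rose 3.44-fold (adjusted p = 0.000189). With the slide row term its difference was 0.97 (log2) and did not pass (adjusted p = 0.544). Mdm2, which degrades p53, rose 1.45-fold (adjusted p = 0.103 without PB rat 2). Cdkn1a, the p53 target p21, had -0.06 ± 0.14 and Ccnd1, cyclin D1, 0.20 ± 0.23, and neither passed (adjusted p = 0.861 and 0.685). Of 45 genes of growth arrest, p53 and early growth, 2 rose and 0 fell, beside 2.46% and 1.76% of all genes tested. With all 30 arrays and no row term 1 of them rose, and with the slide row term added 0 passed.

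Of 40 proteasome subunits tested 8 rose by small amounts, 0 fell and 32 did not pass. Differences lay above 0 in 39, beside 45.6% of all genes tested, with a median of 0.21 (log2). Psmd9, an assembly chaperone of the cap, stood between 3.59 and 3.79 in controls and between 4.01 and 4.27 on PB and rose 1.37-fold. Psmd14, the deubiquitinase of the cap, rose 1.43-fold (adjusted p = 0.0507 without control rat 4), and Psma1, of the core ring, 1.28-fold (0.0589 without PB rat 3). Without PB rat 3, 2 of the 40 rose, and with only the 8 SD arrays 1. With all 30 arrays 0 rose, both without and with the slide row term. The list's median was highest in PB rat 3 (0.36) and lowest in PB rat 1 (0.11). Medians of the other large complexes were near 0. Of 66 respiratory chain subunits 0 passed (median -0.04), and of 71 cytosolic ribosomal proteins 1 rose, Rps4x by 1.65-fold (median 0.06).

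**Figure D3:**
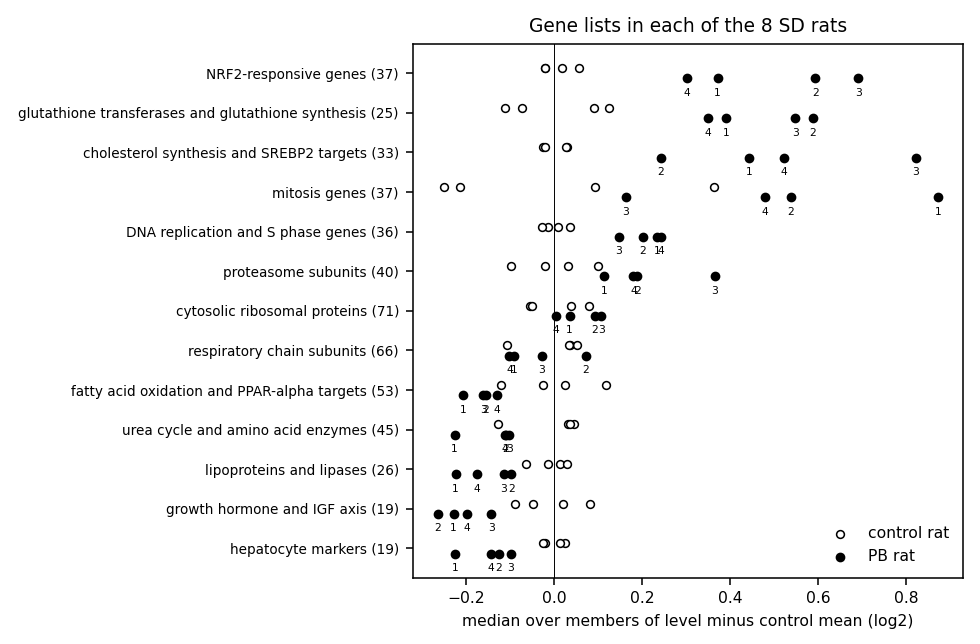
Median over the members of each of 13 gene lists of the level minus the gene's control mean (log2, horizontal axis) in each SD rat, open points for control and filled points, numbered 1 to 4, for PB. Cholesterol synthesis ranges from 0.24 (PB rat 2) to 0.82 (PB rat 3) and mitosis from 0.16 (PB rat 3) to 0.87 (PB rat 1), while the respiratory chain stays near 0.

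Among named genes whose groups did not overlap, the largest falls were of metallothioneins, small proteins that bind zinc and copper and are induced by metals, glucocorticoids and fasting. Mt2A stood at 7.76, 7.55, 6.41 and 6.63 in controls and at 3.73, 5.99, 4.04 and 5.35 on PB. Mt1 stood at 8.46, 8.33, 7.43 and 7.98 in controls and at 5.11, 7.21, 5.18 and 6.72 on PB. Both genes were lowest in PB rats 1 and 3 and fell 4.96-fold (adjusted p = 0.0173) and 3.98-fold (0.025). Without PB rat 3 the adjusted p was 0.0573 for Mt2A and 0.0745 for Mt1. Slc39a4, a zinc importer, rose 1.51-fold, with controls at 3.1 to 3.44 and PB rats at 3.65 to 4.09. Of 21 genes of zinc handling 1 rose and 3 fell, and the third that fell was Car3.

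The promoters of both metallothioneins were searched for the core of the metal response element, TGCNCNC, on both strands. This short motif was found in 52.7% of tested genes and 43.9% of all promoters. Mt1 held 7 matches and Mt2A 5. Of these, GAGAGCA in Mt1 and GAGGGCA in Mt2A, read on the other strand, have neither A nor G there. Both also held a TATA box, TATAAA, which 7.89% of tested genes held. The stretches are shown because these genes fell together, with the matches to TGCNCNC in capitals.
Mt1, chr19:10832976-10833155, minus strand: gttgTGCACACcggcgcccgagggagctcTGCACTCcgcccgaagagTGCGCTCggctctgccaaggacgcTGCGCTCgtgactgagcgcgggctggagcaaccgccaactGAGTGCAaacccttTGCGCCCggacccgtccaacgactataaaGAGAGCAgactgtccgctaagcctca
Mt2A, chr19:10838709-10838933, minus strand: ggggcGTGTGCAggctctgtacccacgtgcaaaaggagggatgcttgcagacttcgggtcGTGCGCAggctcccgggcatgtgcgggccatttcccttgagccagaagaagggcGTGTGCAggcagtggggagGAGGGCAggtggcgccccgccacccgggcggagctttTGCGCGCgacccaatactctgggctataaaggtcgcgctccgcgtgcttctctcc

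Both metallothioneins are also counted among 21 glucocorticoid-responsive genes, of which 0 rose and 3 fell (median -0.31). The third was Tsc22d1, a transcription regulator, which stood at 4.05, 4.21, 3.58 and 4.04 in controls and 2.61, 2.58, 1.03 and 2.96 on PB. PB rat 3 was far the lowest, and Tsc22d1 fell 3.19-fold.

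Of 53 genes of fatty acid oxidation and other PPAR-alpha targets 1 rose, 6 fell and 46 did not pass. Differences lay above 0 in 7, beside 45.6% of all genes tested, and the median was -0.18 (log2). Cpt1a, which admits long-chain fatty acids to mitochondria, stood at 1.52, 1.58, 1.53 and 2.58 in controls and 0.66, 0.67, 0.91 and 0.08 on PB. Control rat 4 stood apart above and PB rat 4 below, and Cpt1a fell 2.34-fold. Fgf21, a hormone that liver secretes on fasting, fell 2.52-fold (adjusted p = 0.0868 without control rat 1). Acsl3, an acyl-CoA synthetase of lipid droplets, rose 1.47-fold (0.0984 without PB rat 3). With only the 8 SD arrays, or with the slide row term, 0 of the 53 passed in either direction. With all 30 arrays and no row term 0 rose and 1 fell.

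Of 26 genes of lipoproteins and lipases 1 rose, Lpl, 4 fell and 21 did not pass, with a median of -0.16 (log2). Lcat, which esterifies cholesterol in plasma, fell 1.30-fold and Apoa5, a regulator of plasma triglyceride, 1.34-fold. Apoc3, an inhibitor of triglyceride clearance and one of the brightest genes, stood at 9.24 to 9.39 in controls and 8.97 to 9.10 on PB and fell 1.22-fold (adjusted p = 0.0569 without control rat 4). Apoa4 had -0.45 ± 0.31 and did not pass (adjusted p = 0.457). With only the 8 SD arrays 0 of the 26 passed.

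Amino acid enzymes fell in 8 of 45 genes and rose in 2, with a median of -0.15 (log2). Oat, ornithine aminotransferase, stood at 5.01, 5.0, 5.49 and 5.23 in controls and 3.79, 3.73, 3.78 and 4.5 on PB. PB rat 4 was nearest the controls, and Oat fell 2.35-fold (adjusted p = 0.00197). Mat1a, which makes S-adenosylmethionine, fell 1.29-fold with controls at 7.49 to 7.64 and PB rats at 7.17 to 7.26. Hal, which deaminates histidine, fell 1.48-fold (adjusted p = 0.0831 without PB rat 3) and Gls2, liver glutaminase, 1.28-fold (0.116 without PB rat 1). The 2 that rose were Ddc, which decarboxylates aromatic amino acids (1.72-fold), and Bcat2, the mitochondrial branched-chain aminotransferase (1.79-fold). Cps1, the entry enzyme of the urea cycle, had -0.26 ± 0.13 and did not pass (adjusted p = 0.284). With all 30 arrays and no row term 2 of the 45 rose and 1 fell, and with the slide row term added 1 rose and 0 fell.

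Of 34 genes of gluconeogenesis and glycolysis control 1 rose (2.94%) and 3 fell (8.82%), beside 2.46% and 1.76% of all genes tested. The list's median was -0.22 (log2). Pc, pyruvate carboxylase, fell 1.44-fold and Fbp1, fructose bisphosphatase, 1.24-fold (adjusted p = 0.0883 without PB rat 1). Pck1, the regulated enzyme of glucose synthesis, ranged from 5.17 to 6.17 in controls and from 4.18 to 5.21 on PB and had -1.03 ± 0.33 (adjusted p = 0.0945). Gk, glycerol kinase, fell 1.65-fold.

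Genes of either liver zone changed. Of 20 pericentral genes, those high around the central vein, 3 rose and 3 fell (median -0.33, log2). Aldh1a1 and Por were among the risers. Those that fell were Oat, Slc13a3, a dicarboxylate carrier (2.0-fold), and Glul, glutamine synthetase. Glul stood at 1.77, 1.94, 1.27 and 1.13 in controls and 0.86, 0.18, 0.35 and 0.46 on PB and fell 2.09-fold (adjusted p = 0.095 without PB rat 2). Of 19 periportal genes 0 rose and 3 fell, Hal, Fbp1 and Gls2 (median -0.22), and without PB rat 3 none of these passed. In whole liver RNA, fewer cells of a type and less RNA per cell cannot be told apart.

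Several genes outside the known enzyme groups were among the strongest. Dusp13b, a dual-specificity phosphatase, stood at -5.09, -4.64, -4.40 and -5.20 in controls and at -2.26, -1.93, -1.95 and -1.89 on PB. The PB rats lay close together and far above the controls, and Dusp13b rose 7.08-fold (adjusted p = 1.07e-06). App, the amyloid precursor protein, stood at 1.40, 1.43, 1.19 and 1.60 in controls and 2.90, 3.58, 3.61 and 2.75 on PB and rose 3.50-fold. Adgrg2, an adhesion receptor, rose 4.05-fold and was highest in PB rat 1 at -1.03. Cxcl9, a chemokine induced by interferon gamma, stood between -1.02 and -0.69 in controls and at 0.27, 1.28, 0.24 and 1.01 on PB and rose 3.06-fold. Of 45 interferon-responsive genes 2 rose, Cxcl9 and Ifi44l, beside 2.46% of all genes tested. Leaving out 1 rat at a time ended the call of Ifi44l for 7 of the 8 rats (adjusted p = 0.111 without PB rat 2).

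Tsku, a secreted leucine-rich protein of liver, rose 3.64-fold, from 2.81 to 3.94 in controls to 4.76 to 5.81 on PB (adjusted p = 0.0594 without PB rat 3). The transglutaminases Tgm1 and Tgm4, which cross-link proteins, rose 3.76-fold and 5.02-fold, and Tgm4 was measured on 3 of 4 control arrays. Another probe of Tgm4 had 0.55 ± 0.24 and did not pass (adjusted p = 0.221). Tgm1 stood at -0.97 in PB rat 3 and between -2.99 and -2.42 in the other PB rats. Slc35e3, of a family of nucleotide sugar transporters, rose 1.77-fold with very small spread, between 0.62 and 0.78 in controls and between 1.35 and 1.64 on PB.

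Among lesser-known genes that fell, Slc17a2, of a family of phosphate and organic anion carriers, stood at -0.17, -0.13, 0.00 and -0.10 in controls and -0.81, -0.77, -0.76 and -0.79 on PB. Its PB rats lay closer together than its controls, and the fall of 0.68 ± 0.07 had an adjusted p of 0.000106, the smallest among named genes that fell. Ang, angiogenin, and Rnase4 are secreted ribonucleases, and they fell 1.5-fold and 1.57-fold. Cldn14, a tight junction claudin, fell 1.57-fold, Fzd8, a Wnt receptor, 1.54-fold, and Plpp3, a lipid phosphatase of the cell surface, 1.40-fold.

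Several of the larger falls were of dim genes. Cpne4, a copine, was measured on all 4 control arrays (-4.08, -3.87, -3.77 and -3.94) and on no PB array, a fall of at least 3.07-fold. Cacna1h, a calcium channel, was measured on 3 control arrays and no PB array, a fall of at least 3.14-fold, and its unmeasured control lay within the range of the PB rats. Rprm, which mediates cell cycle arrest, and Slc25a34, a mitochondrial carrier, were measured on 4 control arrays and 1 PB array each, and the fit put their falls at 2.95-fold and 2.80-fold. Mfsd2a, which carries lysophosphatidylcholine, fell 2.83-fold (adjusted p = 0.107 without control rat 1) and Kcnh1, a potassium channel, 2.52-fold (0.0505 without PB rat 3). The carbonic anhydrases Car1 and Car3 fell 2.37-fold and 2.26-fold. Car3, a male-predominant gene in rat liver, stood between 4.24 and 5.09 in controls and between 3.25 and 3.83 on PB.

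A few genes passed although no control array measured them, and they were tested only because enough PB arrays did. Phf21b, a PHD finger protein, was measured on all 4 PB arrays (-4.08, -5.04, -4.71 and -5.63), at least 2.76-fold above the controls. Cyp2g1, known as an olfactory P450, Brs3, a bombesin-like receptor, Sohlh2, a germ cell factor, and Pcdhb3, a protocadherin, shared 1 pattern. In each, PB rats 1 to 3 stood between -5.12 and -4.45 while PB rat 4 stood between -7.02 and -6.90, with the controls between -7.74 and -7.18. Their bounds were 2.21-fold, 1.99-fold, 1.90-fold and 1.85-fold. Without control rat 3 the adjusted p of Cyp2g1, Sohlh2 and Pcdhb3 was 0.0564, 0.0777 and 0.0586. After normexp background correction Sohlh2 and Pcdhb3 did not pass. Over all alternative fits the smallest differences of Cyp2g1, Brs3, Sohlh2 and Pcdhb3 were 0.49, 0.34, 0.28 and 0.23 (log2). With no filter on dim probes 3032 genes rose and 597 fell, beside 426 and 305 with it.

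Many other lists gave small counts, to be read beside 2.46% higher and 1.76% lower over all genes tested. Of 31 nuclear receptors and cofactors 0 rose and 1 fell, Nr1i2 itself, by 1.31-fold with overlapping groups (adjusted p = 0.0911 without PB rat 1). Nr1i3, which encodes CAR, ranged from 0.76 to 1.88 in controls and from 0.24 to 1.03 on PB (-0.63 ± 0.30, adjusted p = 0.268). Of 19 genes of the growth hormone and IGF axis 0 passed (median -0.22), and Igf1 had -0.22 ± 0.06 (adjusted p = 0.0524). Of 15 circadian clock and 16 fetal and preneoplastic genes 0 passed. Heat shock chaperones had 1 riser of 29, the unfolded protein response 1 riser and 1 faller of 35, coagulation and complement factors 1 riser of 36, and genes of endoplasmic reticulum membrane and phospholipid synthesis 2 risers of 26. Acute phase genes had 2 risers and 3 fallers of 33, bile acid synthesis 0 and 2 of 19, and thyroid hormone handling 2 and 1 of 15. The fallers of bile acid synthesis were 10.5% of its list, and the 1 faller among nuclear receptors and cofactors 3.23%. A small count here can thus exceed the share over all genes.

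**Figure D4:**
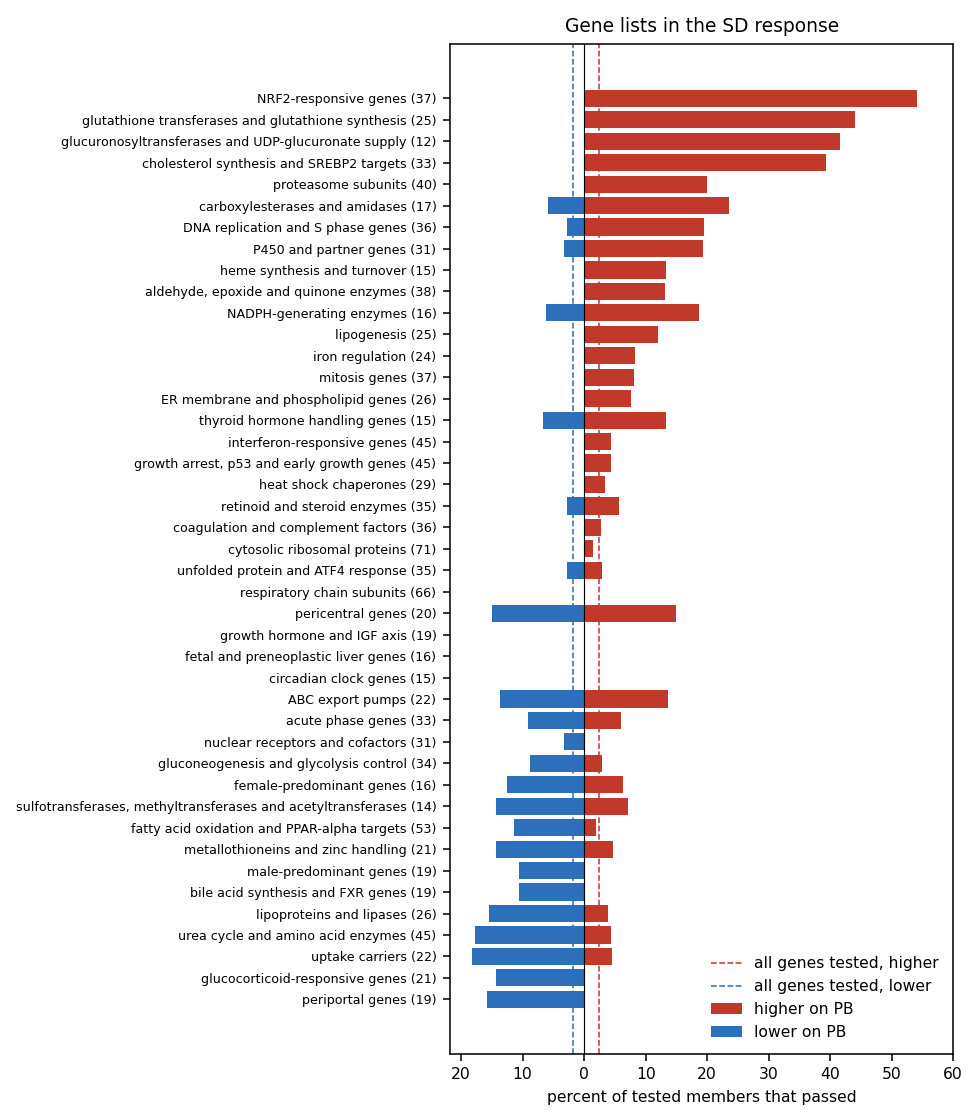
Share of the tested members of 43 gene lists (number tested in brackets, at least 12) that passed the test on PB, in percent, higher to the right in red and lower to the left in blue. Dashed lines mark the shares over all genes tested, 2.46% higher and 1.76% lower, and the NRF2, glutathione, glucuronidation and cholesterol lists reach 54.1%, 44%, 41.7% and 39.4%. Lists share members: the risers Gsta4, Gsr, Gstm1, Mgst2, Gstm3 and Gclc are in both the NRF2 and glutathione lists. Ugt1a6 and Ugdh are in both the NRF2 and glucuronidation lists.

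The labelled tissue was checked against cell type markers. All 19 hepatocyte markers were measured on all 8 arrays, and 0 rose and 2 fell, Ahsg by 1.33-fold and Asgr1, a lectin receptor of hepatocytes, by 1.19-fold (adjusted p = 0.116 without control rat 4). Alb, albumin, stood between 8.60 and 8.69 in controls and between 8.60 and 8.72 on PB (adjusted p = 0.994). The summed linear level of the hepatocyte markers ranged from 3966 to 4195 in controls and from 3743 to 3867 on PB (exact permutation p = 0.0286, adjusted over 11 measures 0.105). None of the other 8 marker lists had a member past the test. Summed neutrophil markers ranged from 0.807 to 1.44 in controls and from 0.622 to 0.80 on PB (exact permutation p = 0.0286, adjusted 0.105), and 5 of the 9, among them Elane and Mmp8, were measured on no array. Summed erythroid markers ranged from 367 to 933 and from 279 to 544 (exact permutation p = 0.2) and macrophage markers from 137 to 161 and from 137 to 157 (exact permutation p = 0.543). Of the pancreatic markers Cpa1, Pnlip and Prss1 were measured on no array and Ctrb1 on all 8. The part of these shifts in the small falls of secreted protein genes was not tested.

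CAR KO rats were used to ask which of these changes differ without the receptor. In them PB changed 29 of 17841 genes (0.163%). The SD response exceeded that of CAR KO rats in 76 of 18113 genes (0.42%) and lay below it in 19 (0.105%), by limma's test of the difference between the responses. Without control rat 3 the SD response was above in 49 genes, and without PB rat 4 it was below in 31. Of the 426 genes that rose in SD rats 64 passed that test, and of the 305 that fell 12. These genes were called on SD values that also enter the difference, so the counts only describe them. For the other SD genes a difference from CAR KO rats was not shown. Cyp2b2 had -0.09 ± 0.14 in CAR KO rats and a difference of 4.12 ± 0.20 (adjusted p = 9.25e-08). App had 0.23 ± 0.18 and a difference of 1.58 ± 0.25 (adjusted p = 0.0106), and Dusp13b 0.77 ± 0.18 and 2.05 ± 0.26 (0.0028).

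Other genes past the test of the difference came from most of the groups above. Gadd45b had -0.45 ± 0.20 in CAR KO rats and a difference of 2.24 ± 0.29 (adjusted p = 0.00291). Por had -0.18 ± 0.18 and a difference of 1.75 ± 0.25. Gins1 and Rfc2 had 0.02 ± 0.11 and -0.02 ± 0.08, with differences of 0.95 ± 0.15 and 0.78 ± 0.12. Gstm1 had -0.01 ± 0.14 and a difference of 1.13 ± 0.19.

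The medians of 4 lists are given for both models, with no test of a list. The median of the cholesterol list was 0.54 in SD and 0.07 in CAR KO rats, and 0 of its genes passed the test of the difference. The NRF2 list had 0.47 and 0.18, with 5 genes past that test, and Htatip2, which rose in CAR KO rats too (0.39 ± 0.07, adjusted p = 0.0462), was the 1 member called there. The mitosis list had 0.47 and -0.17, with 0 past the test, and the fatty acid oxidation list -0.18 and -0.11, with 0 past it.

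Downward, Slc17a2 had 0.07 ± 0.07 in CAR KO rats and a difference of -0.75 ± 0.10 (adjusted p = 0.00383). The amino acid list had a median of -0.15 in SD and 0.10 in CAR KO rats, and 3 of its genes passed below, among them Oat and Hal. Oat had 0.38 ± 0.19 in CAR KO rats and a difference of -1.61 ± 0.26 (adjusted p = 0.0128), and Hal 0.51 ± 0.13 and -1.07 ± 0.19 (0.0178). Clybl, a mitochondrial lyase that clears citramalyl-CoA, fell by 0.42 in SD rats and rose by 0.48 ± 0.08 in CAR KO rats (adjusted p = 0.0352 in the latter). Mt1 and Mt2A had 0.36 ± 0.45 and -0.25 ± 0.49 in CAR KO rats. Kcnh1 had -1.35 ± 0.28 there (adjusted p = 0.0585) beside -1.33 ± 0.28 in SD rats, and Zfp786, a zinc finger gene, 3.07 ± 0.44 (0.0177) beside 1.68 ± 0.44. For Zfp786 no SD control array measured the gene, and without control rat 4 its SD adjusted p was 0.114.

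**Figure D5:**
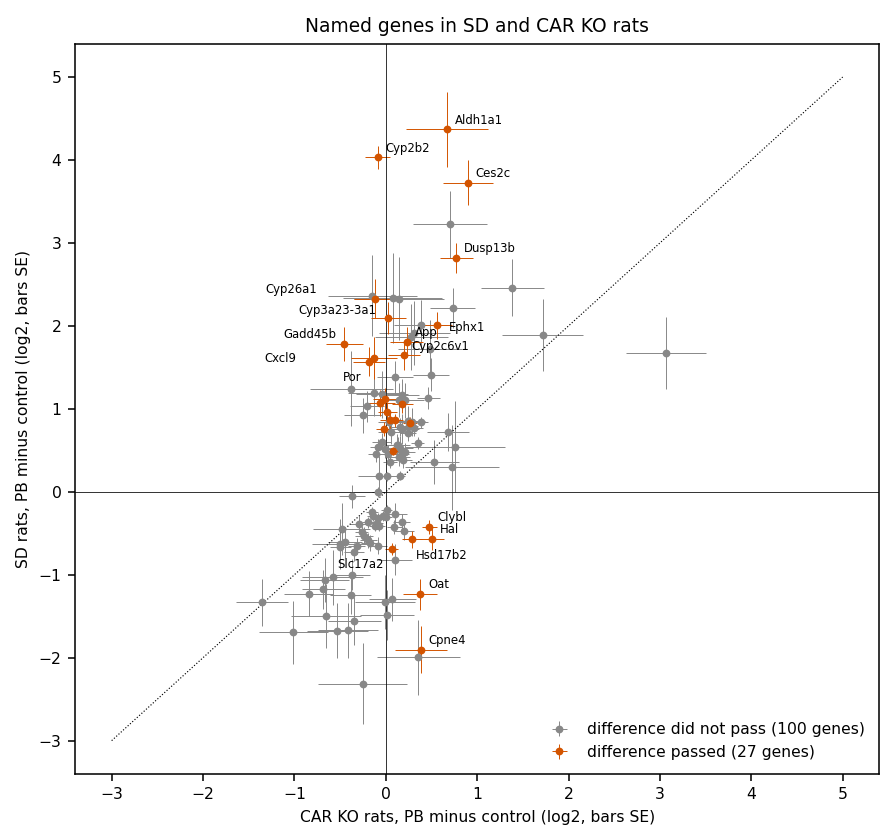
PB minus control in SD rats (vertical axis) against the same in CAR KO rats (horizontal axis), both log2 with bars of 1 SE, for 127 of the described genes that were tested in both. The 27 orange genes passed limma's test of the difference, 21 above the dotted line of equality and 6 below it, and the other 100 did not pass. Most of the genes were chosen for their change in the same SD arrays. Smaller values on the CAR KO axis follow in part from that choice.

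The chimeric mice gave a broader PB response, 6241 of 14642 genes tested (42.6%), with more arrays per diet. All chimeric control arrays and that of chimeric PB mouse 1 shared a slide, and chimeric PB mice 2 to 7 lay on another. Diet and slide can therefore hardly be told apart in these mice, nor in their differences from SD rats. The SD response differed from it in 3298 of 17538 genes (18.8%), above in 2193 (12.5%) and below in 1105 (6.3%), so a difference there is common. With each array centred on its median in place of the 75th percentile, 32.5% of the genes that then passed lay above in place of 66.5%, and the median of all differences was -0.35 (log2), so directions between these models depend on scaling. The rat array also reads host RNA to an unknown extent. Cyp2b2 rose by 5.81 in chimeric mice, App by 3.14, Cxcl9 by 3.07 and Dusp13b by 2.14 (adjusted p at most 2.9e-07 each). Of the genes that fell in SD rats, Cpt1a had 0.01 in chimeric mice (adjusted p = 0.99) with a difference of -1.23 ± 0.37 (adjusted p = 0.0195), while Fmo1 fell by 1.57 and Sult2a1 by 1.44 there. Slc25a34 differed by -1.93 ± 0.36.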

How the data were processed

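Per the file headers, each deposited array held 62976 spots of a rat expression design and was quantified in Agilent Feature Extraction 10.7.3.1. Per the file headers, the deposited intensity values are processed signals, from which Feature Extraction had subtracted background and a spatial trend of each array; arrays were not brought to a common scale. The authors' deposited series matrix holds log2 values and served as an alternative; how each array was offset is not stated here. Control spots (4259) were left out, spots of a probe averaged, and the log2 of the signal was tested after the 75th percentile of the array was taken off. No column of per-sample values was left unmapped.

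Probes were named through transcript accessions in the RefSeq gene annotation of GRCr8. Of 30367 probes, 18004 matched 15170 symbols, and 12363 matched none. Of several probes of a gene the brightest on average over the 16 rat arrays was kept. A gene was tested where measured on at least 75% of the arrays of a group compared. Tests used limma 3.58.1 (lmFit, eBayes) in R 4.3.3 with data.table (version 1.17.8), and p-values were adjusted by Benjamini-Hochberg over all genes tested, with a threshold of 0.05. The SD response and its difference from CAR KO rats were fitted on the 16 rat arrays with 4 group means and no covariate, and the difference from chimeric mice on all 30 arrays. Errors of differences are standard errors and those of levels SDs. The pipeline was tested on simulated data. Array measures and summed marker levels were compared by exact permutation tests. Where no array of a group measured a gene, its fold is a bound, given as "at least". The brighter group's mean is then set against a floor, which on each array is the lowest signal well above background or the dim probe's own, whichever is higher. Array number, not read depth, limits precision.

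The 45 gene lists, the 9 marker lists and the rule for named genes were chosen with earlier results of these data known. Named are the 30 risers and 20 fallers of largest change without overlap, the 10 of smallest adjusted p each way, up to 4 members that passed and the key genes of each list, up to 10 genes each way measured on arrays of 1 diet only, and the 5 largest differences each way from the other models. Other symbols are list members named to complete small counts. Replicate numbers are taken from the titles and nothing in the labels pairs rats of different diets. The deviations of same-numbered control and PB rats correlated at 0.04, -0.10, 0.08 and -0.06, so no block was used. Alternatives were other normalizations and backgrounds, filters, sets of arrays, weights, probes, a replicate block, a slide row term and leaving out each rat. The mean signal column needed for the planned normexp correction is not in these files, and the median signal was used instead, a choice made after the data were seen, as was a filter on genes measured on all 8 SD arrays. Results for some genes are not reported here.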

Additional observations from a re-analysis of the deposited data

Results flagged for a closer look

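In 13 of 270 groups of 4 rats that were tested, 1 rat lay far from the other 3 by Dixon's test, and chance gives about 5% of groups. Among controls, rat 2 was far from the others in Cyp2b2 (3.21), Mdm2 (-0.375) and Plpp3 (1.98), rat 3 in Ces2j (1.73) and Ahsg (8.59), rat 1 in Cxcl9 (-0.687), and rat 4 in Cpt1a (2.58). Among PB rats, rat 1 was far from the others in Gstm1 (7.29) and Dusp13b (-2.26), rat 2 in Apoc3 (9.10), and rat 4 in Oat (4.5), Cyp2g1 (-7.01) and Pcdhb3 (-6.90). All are log2 levels.

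The SD response differed from that of CAR KO rats in 95 genes by limma's test of the difference. The 5 largest differences above were Cyp2b21 (7.25), Cyp2b2 (4.12), Aldh1a1 (3.70), Abcc3 (3.47) and Ces2c (2.83, log2). Cyp2b21 and Abcc3 were measured on no CAR KO control array, so their sizes rest on signals not well above background and are no bound. The 5 largest below were Cpne4 (-2.29), measured on no PB array of SD rats, Oat (-1.61), Hal (-1.07), Clybl (-0.90) and Hsd17b2 (-0.86), an enzyme that oxidises sex steroids.

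It differed from that of chimeric mice in 3298 genes. The 5 largest above were Vsir (4.36), Id3 (3.79), Fscn1 (3.68), Lrg1 (3.37) and RT1-Da (3.32), in each of which the chimeric mice went down on PB while SD rats stayed within 0.30 of their controls on average. Vsir, Id3, Fscn1 and RT1-Da were measured on 1 of 7 chimeric PB arrays. The 5 largest below were Lpl (-4.67), A1bg (-4.29, not tested in the SD response), Cacna1h (-3.23), Hdc (-2.55) and Tor4a (-2.42). Lpl was measured on no chimeric control array and on all 7 chimeric PB arrays.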

How the results depend on the processing

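Of the 731 genes past the test in SD rats (426 higher, 305 lower, 137 at least 2-fold), the numbers were 187 (130, 57 and 75) with only the 8 SD arrays, 202 (156 and 46) with all 30 arrays and 115 (99, 16 and 84) with the slide row term. They were 3629 (3032, 597 and 370) with no filter on dim probes, and normexp gave 76 at least 2-fold. The replicate block gave 315 (201 and 114), and 1 of 4 PB arrays correlated best with the control of its own number. The share higher among genes past the test was 58.3%, against 83.5% with no filter, 69.5% with only the SD arrays, 77.2% with all 30 and 86.1% with the row term. Leaving out each rat gave 395 to 687 genes (227 to 383 higher, 165 to 304 lower). For the difference from CAR KO rats (95, 76 above and 19 below) the numbers were 40 (35 and 5) with all 30 arrays, 39 (34 and 5) with the row term and 25 (20 and 5, with 23 at least 2-fold) with the replicate block, while 30 lay below with normexp and with trend and robust settings. Leaving out each rat gave 49 to 79 above and 14 to 31 below. For the difference from chimeric mice (3298, 2193 above and 1105 below) median centring gave 1442 above and 2999 below, array weights 6531 with 3520 below, the row term 1191 (938 and 253, with 816 at least 2-fold), normexp 525 at least 2-fold, and the fit without CAR KO arrays 615 below. Differences that did not pass and changed sign by more than their SE were those of Nqo1 without control rat 4 (-0.0821) and Fasn without control rat 2 (-0.240), Hmox1 and Ccnd1 with the row term (-0.0880 and -0.107) and Alb under quantile normalization (0.0601). Leaving out each rat gave -0.0821 to 1.01 for Nqo1 and -0.240 to 0.698 for Fasn. Smaller changes of sign occurred in Cdkn1a (0.00554 without control rat 2) and in Alb. The difference of Ftl1 from CAR KO rats did not pass and was -0.0918, with its sign turned, under quantile normalization. The fit of the 8 SD arrays rests on fewer arrays, but counts were also smaller with all 30, and the cause of these differences in count was not tested. Dim genes are limited by background: 15186 of 17285 were measured on all 8 arrays, with 397 higher and 250 lower.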

Other observations

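Groups of genes formed by their symbols, after the values had been seen, are listed here and support nothing by themselves. Their counts are to be read beside 2.46% higher and 1.76% lower over all genes tested. Of 33 nucleolar genes of ribosome assembly 5 rose and 0 fell (Noc3l, Rpf2, Nop16, Utp4 and Imp4, median 0.18 on the log2 scale), and of 66 mitochondrial ribosomal proteins 4 rose and 0 fell (median 0.06). Of 13 tubulins 3 rose, Tuba3a, Tuba1c and Tubb4b, and 0 fell. Of 4 genes of the N-acetyltransferase 8 family 3 rose, Nat8f5, Nat8 and Nat8f2. Of 10 claudins, which seal tight junctions, 2 fell, Cldn1 and Cldn14, and of 6 pancreatic-type ribonucleases 3 fell, Rnase4, Ang and Ang2. Of 220 solute carriers 7 rose (3.18%) and 9 fell (4.09%). Olfactory receptors, which liver is not known to use, had 2 risers (1.92%) and 5 fallers (4.81%) of 104.

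Some of the largest changes belong to transcripts without a symbol in the table used. Probe A_44_P335974 rose by 7.06 (log2) and was measured on all 8 arrays. Probe A_44_P442728 was measured on no control array and on all 4 PB arrays, a rise of at least 84.3-fold. Probe A_64_P038414 fell by 4.49, from 4 measured control arrays to 1 PB array, and A_64_P162940, measured on no PB array, fell at least 3.65-fold. Other probes of the genes that passed could be tested in 65 cases: 61 moved in the same direction, 33 passed in that direction and 0 passed in the other.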
